A study of Mus musculus with 9 samples.

Results

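The invariant same-width islands are stretches of chromatin carrying acetylated lysine 27 of histone H3 (H3K27ac) that had nearly the same borders and nearly the same share of the ChIP-seq counts in WT and Tcf1/Lef1-deficient (dKO) naive CD8+ T cells. Islands of the WT and dKO lists that shared at least 1 bp were joined into merged regions. A merged region was kept when it lay on chromosomes 1 to 19, held exactly 1 island of each list, had an overlap of at least 80% of each island, and had an absolute log2 dKO/WT ratio of counts of 0.1 or less after each count was divided by the total of its list. This rule kept 3523 of 76633 merged regions (4.60%). The counts used to pick the regions came from the same 2 lists that are described here, so their ratio, their overlap and the likeness of their widths are properties of the choice and not results.

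H3K27ac ChIP-seq was performed on naive splenic CD8+ T cells, sorted as GFP+ TCRbeta+ CD62Lhi CD44lo-med, from young adult C57BL/6-background mice of both sexes. Every mouse carried hCD2-Cre and a Rosa26 GFP reporter that Cre switches on; WT mice were Tcf7+/+ and Lef1+/+ (4 samples), dKO mice were homozygous for floxed alleles of both, Lef1 fl/fl and Tcf7 fl/fl (3 samples), and each genotype had 1 input sample. This Cre acts mainly late, once T cells have matured. Excision by this Cre is not complete, and the GFP gate served to keep cells in which Cre had acted.

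Acetylation of H3 lysine 27 is laid down by the coactivators p300 and CBP and marks active promoters and active enhancers, and very long acetylated stretches in T cells often cover genes of T cell identity. Tcf1 and Lef1, encoded by Tcf7 and Lef1, are HMG-box transcription factors that bind short A/T-rich motifs and act in T cells both as activators and as repressors. A promoter rich in CpG dinucleotides is the usual form at genes used by every cell, whereas promoters poor in CpG are more often used in particular cell types.

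The replicates of a genotype had been pooled before islands were called. There was therefore 1 list per genotype, no spread between samples could be computed, and no test was made. Intervals given below are exact 95% binomial intervals of the ratio of 2 counts, or 95% Wilson intervals of a share, and cover nothing but the error of counting. In the WT list there were 65563 islands with 82668007 counts in total, and in the dKO list 82213 islands with 57665047 counts. In promoter regions of the T cell markers Cd3e, Cd3d, Cd3g, Cd8a, Cd8b1, Lck and Zap70 the lists held 364.5 to 485.8 WT counts per kb and 253.8 to 293.9 dKO counts per kb. Islands were also present at promoters of 4 of 5 B cell markers in both lists (107.8 to 305.3 WT counts per kb), and of 5 of 6 myeloid markers in the WT list and 6 of 6 in the dKO list (120.8 to 203.7 WT counts per kb). Of the 3 NK markers, Klrb1c and Klrd1 had promoter islands in both lists (299.1 and 245.8 WT counts per kb). The CD4 or Treg markers Cd4, Zbtb7b and Il2ra had them as well (166.6 to 272.5 WT counts per kb). Pax5, which defines B cells, and Ncr1, which defines NK cells, had no island at a promoter. The promoter regions of the targeted genes stayed acetylated, with 612.4 WT and 464.9 dKO counts per kb at Tcf7 and 488.1 and 261.8 at Lef1, and neither was a member. H3K27ac at a promoter does not show whether floxed exons were removed. In bulk chromatin, fewer cells with a mark and less of the mark per cell cannot be told apart.

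Sequences are shown for 4 promoters and 2 intergenic stretches because these are the most deeply covered member regions of a T cell transcription factor, an RNA-silencing enzyme, a T cell adhesion receptor, a cytokine gene and of DNA outside any gene body. Each run is 200 bases of mm9, read on the strand given; promoters end at the base before the annotated transcription start site (TSS), and the intergenic runs are the centre of the region. Capitals mark a match to any of 5 motifs searched on both strands, ATCAAAG (Tcf/Lef), CCGGAA (ETS), GGGCGG (GC box), TGACTCA (AP-1) and AACCGCA (Runx). No match overlapped another in these runs.
Bcl11b promoter, chr12:109241813-109242012, minus strand: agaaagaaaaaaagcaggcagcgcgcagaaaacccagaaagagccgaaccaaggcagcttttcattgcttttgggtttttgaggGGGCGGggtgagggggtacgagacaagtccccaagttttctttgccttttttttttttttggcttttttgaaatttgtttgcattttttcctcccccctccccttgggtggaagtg
Eif2c2 promoter, chr15:73015378-73015577, minus strand: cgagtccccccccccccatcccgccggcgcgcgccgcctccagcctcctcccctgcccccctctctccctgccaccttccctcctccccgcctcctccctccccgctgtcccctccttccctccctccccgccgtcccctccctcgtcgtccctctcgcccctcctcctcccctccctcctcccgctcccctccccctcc
Cd2 promoter, chr3:101091863-101092062, minus strand: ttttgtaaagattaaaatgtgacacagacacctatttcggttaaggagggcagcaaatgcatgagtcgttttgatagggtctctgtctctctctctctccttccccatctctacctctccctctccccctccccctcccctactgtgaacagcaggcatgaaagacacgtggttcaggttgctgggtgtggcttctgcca
Tnf promoter, chr17:35338953-35339152, minus strand: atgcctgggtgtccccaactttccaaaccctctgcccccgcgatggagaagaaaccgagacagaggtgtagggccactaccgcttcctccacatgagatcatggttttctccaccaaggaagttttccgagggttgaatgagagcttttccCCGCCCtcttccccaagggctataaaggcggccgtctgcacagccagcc
Intergenic, nearest TSS Mdm1, chr10:117536901-117537100, plus strand: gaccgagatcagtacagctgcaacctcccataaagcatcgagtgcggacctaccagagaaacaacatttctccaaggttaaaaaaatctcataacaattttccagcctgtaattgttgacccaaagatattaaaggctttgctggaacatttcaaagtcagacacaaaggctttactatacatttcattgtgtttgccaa
Intergenic, nearest TSS Glrp1, chr1:90482101-90482300, plus strand: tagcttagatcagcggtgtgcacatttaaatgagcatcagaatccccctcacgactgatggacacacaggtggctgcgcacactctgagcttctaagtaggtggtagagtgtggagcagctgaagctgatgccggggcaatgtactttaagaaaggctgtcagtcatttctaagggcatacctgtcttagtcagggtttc

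The 4 promoters differ widely in base composition. The Eif2c2 run has 78.0% G and C with 15 CpG dinucleotides, the Tnf run 57.0% with 8, the Cd2 run 50.5% with 3, and the Bcl11b run 46.5% with 5. The runs of Bcl11b and Tnf each hold 1 GC box, and none of the 6 runs holds the Tcf/Lef letters.

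The members formed a slice of a continuous distribution. Among 44698 autosomal regions with islands in both lists, 7961 had an absolute log2 ratio of 0.1 or less (17.8%), and among the 12862 same-width regions, which met every criterion but the ratio, the 3523 members made up 27.4%. The other same-width regions comprised 5667 with a ratio below -0.1, called the lower regions here, and 3672 with a ratio above 0.1, the higher regions. In steps of 0.1, the same-width regions numbered 1588 between -0.2 and -0.1, 1768 and 1755 in the 2 steps of the members, and 1478 between 0.1 and 0.2. The median log2 ratio of the same-width regions was -0.06 with an SD of 0.29 across regions. The counts of regions either side of the limit thus changed smoothly, with no gap at 0.1. Of all same-width regions, 0.832% were at least 1.5-fold higher in dKO cells and 3.71% at least 1.5-fold lower, and over the 44698 regions with islands in both lists these shares were 11.2% and 14.2%.

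**Figure D1:**
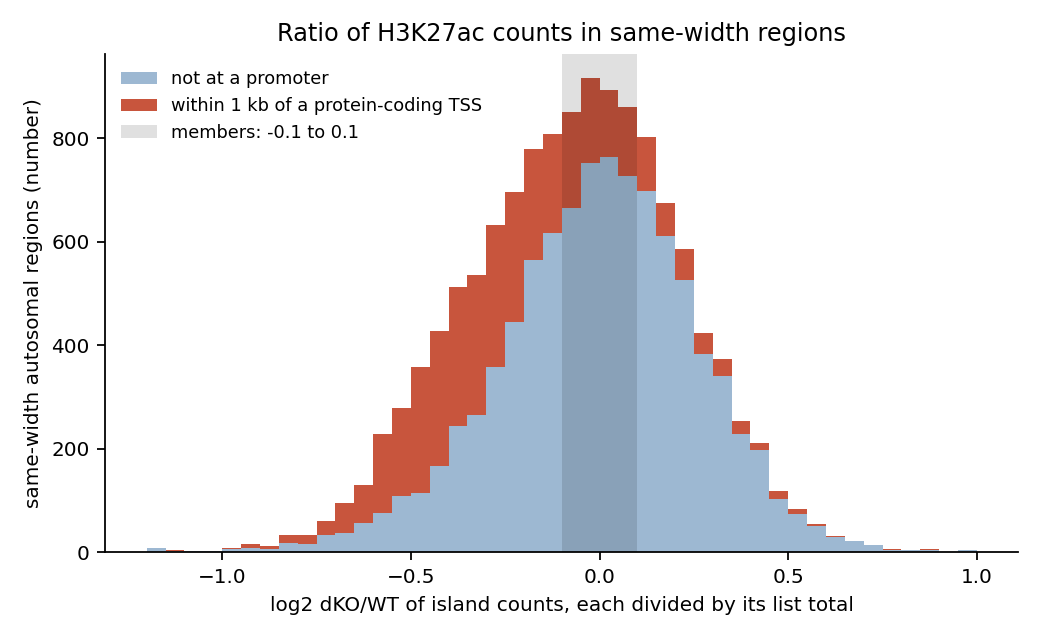
Number of same-width autosomal regions (vertical axis) by the log2 dKO/WT ratio of island counts, each divided by its list total (horizontal axis), with promoter regions stacked in red on the other regions in blue. The grey band holds the 3523 members; regions away from promoters are centred near 0 (median 0.01) and promoter regions lie to the left (median -0.27).

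Values at the limit show how little separates members from the rest. Just inside the upper limit, among regions with at least 5000 counts, lay an intergenic region whose nearest TSS was that of Mex3b (3013 WT and 2250 dKO counts, log2 ratio 0.0984, interval 0.0189 to 0.178), one in Rgs10 (0.0967) and the promoter region of Jmjd5 (0.0959). Just outside it lay a region near Phxr4 (6373 and 4768 counts, 0.101, interval 0.0466 to 0.155), the promoter region of Hvcn1 (0.102) and one in Msi2 (0.107). Just inside the lower limit lay the promoter regions of Smpd1 (-0.0990) and of Gm17671 and Sp1 (-0.0981), and a region whose nearest TSS was that of Jun (-0.0962). Just outside it lay those of Ublcp1 (-0.10), of Ddx20 and 6530418L21Rik (-0.1003) and of Tnrc18 (-0.1003). The intervals of each of these neighbours overlapped the limit.

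Counting precision bounded how tightly single members could be called alike. The interval of the ratio held 0 in 3389 members and excluded it in 134, and it extended by a median of 0.19 on the log2 scale to either side. It lay wholly within 0.1 of 0 in 146 members, within 0.2 in 1228, and within 1.5-fold in all 3523. Conversely, the interval reached into the members' band in 2398 of the 5667 lower and 2426 of the 3672 higher regions. Counts of 1000 or more in both lists together were held by 1694 members and 5000 or more by 319. The word invariant therefore describes the point estimate, and for most members a difference of 0.2 was within counting error.

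The scale also set what counted as equal. Without scaling, the members' dKO counts were lower than their WT counts in every region, with log2 ratios from -0.62 to -0.42. This range follows from the limit and from the list totals, whose log2 dKO/WT ratio was -0.52. Ratios were also centred on the 1155 same-width promoter regions whose central 1 kb had a CpG observed/expected ratio above 0.6, here called CpG-rich promoters. This choice was made after seeing the data and shifts every ratio by 0.41. With it, 1781 regions fell within the limit and 0 of them were among the 3523. With the dKO and WT totals taken only over regions with islands in both lists, 2303 of the 3523 stayed within it (65.4%). Equality here means an equal share of all island counts of a list.

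The merged width of the members had a median of 4000 bp (quartiles 2400 and 7600 bp, range 200 to 91800 bp), against 4200 bp in the lower and 3800 bp in the higher regions, 4000 bp in all same-width regions and 5600 bp in all regions with islands in both lists (quartiles 3400 and 10400 bp). The median WT count of a member was 559 (quartiles 321 and 1243) and the median dKO count 392 (quartiles 224 and 869). Per kb of island, members had a median of 148.3 WT and 104.4 dKO counts. The lower regions had 230.7 and 133.0, and the higher regions 136.5 and 107.0. Members lay between the other classes in WT depth but were the lowest of them in dKO depth. The classes were cut on the ratio of these same counts, so the WT order follows in part from the rule. Members were close to the median of all shared regions, 148.3 WT and 105.0 dKO counts per kb. The WT order also depended on the scaling. Without it the regions within the limit had 130.9 WT counts per kb, below the lower (161.0) and the higher regions (136.8), and centred on CpG-rich promoters they had 335.0. Together they covered 21.77 Mb in the WT list with 203.2 counts per kb and 21.95 Mb in the dKO list with 140.2 counts per kb, and took 5.35% of the WT and 5.34% of the dKO counts.

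The borders themselves were identical in both lists in 994 members (28.2%). One border was shared in 1574 members and neither in 955. Of 7046 borders 3484 had moved, 52.5% of them by a single SICER window of 200 bp and none by more than 5000 bp. The dKO island was wider in 1117 members, narrower in 1176 and equally wide in 1230, of which 236 were shifted. Identical borders were found in 21.3% of the lower and 23.5% of the higher regions. Since a wider island collects more counts, the ratio per kb of island was read as well. It stayed within 0.1 of 0 in 2233 members (63.4%), exceeded 0.1 in 672 and was below -0.1 in 618, with a range from -0.41 to 0.42. The limit on counts and overlap left 0 members at 1.5-fold per kb in either direction, whereas 0.342% of the same-width regions were that much higher and 3.48% that much lower, and of all regions with islands in both lists 1.17% and 4.42%.

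A protein-coding TSS lay within 1 kb of 612 members (17.4%, Wilson interval 16.2 to 18.7%), against 27.1% of all same-width and 26.7% of all shared regions. A further 704 overlapped an exon (19.98%), 968 lay within introns (27.5%) and 1239 were intergenic (35.2%, interval 33.6 to 36.8%). Among the lower regions, 44.2% were at promoters and 25.8% intergenic, and among the higher regions 10.1% and 40.4%. Read the other way, 17.6% of 3488 same-width promoter regions were members and 71.8% were lower, whereas of the 9374 other same-width regions 31.1% were members. Centred on CpG-rich promoters, 29.6% of promoter regions and 7.98% of the others were within the limit. That setting places the limit on the median of CpG-rich promoter regions, so the turned order follows from the choice. Scaled by list totals, exonic, intronic and intergenic regions were alike, with member shares of 31.6%, 32.7% and 29.6% and median log2 ratios of 0.02, 0.0021 and -0.00044. Regions wider than 8 kb had the highest promoter share among members, 40.3%, against 7.58% of members up to 2 kb wide, so that promoter shares moved with width.

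The class of a region also moved with its depth. The same-width regions were divided into 5 groups of equal size by depth, the CPM per kb of island (CPM relative to all island counts in a list), taken as the geometric mean of both lists. In the 4 shallower groups members made up 34.4%, 31.6%, 32.5% and 27.4%, and in the deepest group 11.2%, where 84.5% of regions were lower in dKO cells. Promoter regions made up 5.13% of the shallowest and 82.6% of the deepest group. Depth was computed from the same counts as the ratio, and the promoter share, which was not, rose beside it. At promoters the share of members fell from 36.4% in the shallowest group to 9.04% in the deepest, and away from promoters from 34.3% to 21.4%. The parts of promoter position, depth and CpG content in these differences were not tested apart.

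**Figure D2:**
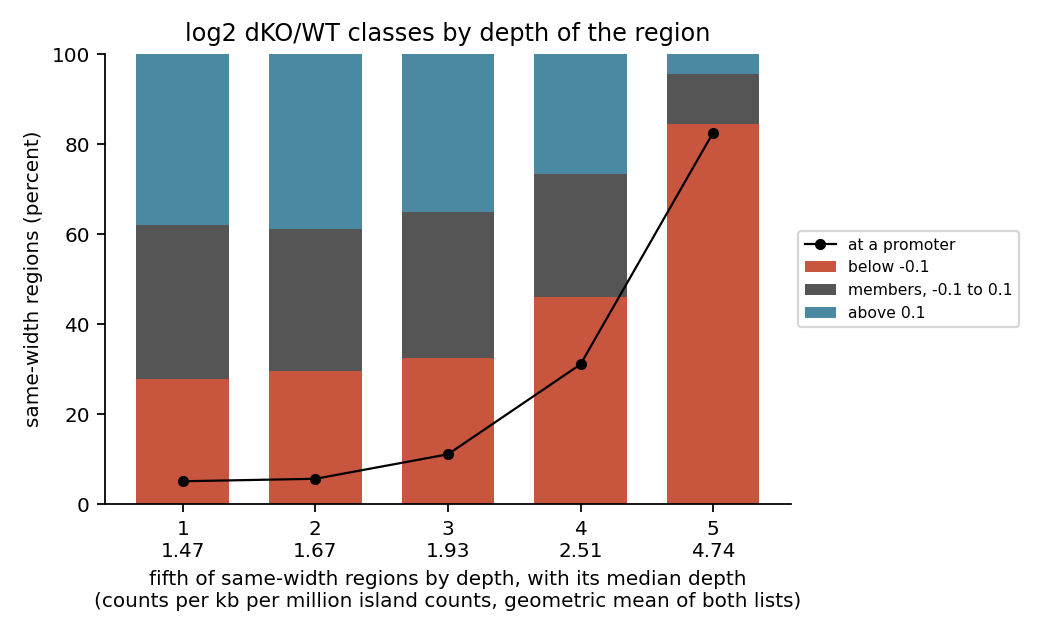
Share of same-width regions (percent) in the lower (red), member (grey) and higher (blue) classes in 5 groups of depth, from shallow to deep, with the median depth of each group under its number; the black line gives the percent at a promoter. Members fall to 11.2% in the deepest group, where 82.6% of the regions are at promoters and 84.5% are lower.

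Deep regions that were members differed from deep regions that were lower in width and in base composition, and so did deep regions that were higher. In the deepest group, the 288 members had a median width of 8800 bp and 54.5% of them exceeded 8 kb, against 4800 bp and 22.1% in the 2173 lower regions. The 112 higher regions of this group were like the members, with 9000 bp and 53.6%. The median CpG observed/expected ratio of the central 1 kb was 0.26 in these members, 0.51 in the lower and 0.23 in the higher regions. At a promoter lay 66.7% of these members and 86.1% of the lower regions. Of the regions of this group up to 4 kb wide, 7.41% were members, of those from 4 to 8 kb 6.54%, of those from 8 to 20 kb 17.9%, and of those over 20 kb 35.5% (65 of 183). The median log2 ratio was -0.42 in the narrowest and -0.09 in the widest of these classes. Wide, strongly acetylated domains thus held a larger share of members than narrow strong ones, and in the over 20 kb class 47.5% were still lower.

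CpG content was read from the central 1 kb of each merged region. This window is centred on the region, and in a wide promoter region it need not hold the TSS. The observed/expected CpG ratio of the window was not used by the rule. Its median was 0.18 in members, 0.24 in the lower and 0.17 in the higher regions, and it exceeded 0.6 in 3.04%, 19.8% and 0.980% of them. Among same-width promoter regions with a ratio up to 0.2, 26.0% were members (219 of 842), and the share was 24.7% from 0.2 to 0.4, 12.5% from 0.4 to 0.6 and 7.10% above 0.6 (82 of 1155). In that last class 90.4% were lower, with a median log2 ratio of -0.41. The share of higher regions fell over the same classes too, from 19.1% to 2.51%, so the fall was not particular to members. CpG-rich promoter regions were also narrower, with a median of 3600 bp against 8800 bp for the poorest class, and deeper, with 5.36 against 2.91 CPM per kb. The parts of CpG content and width in the share of members were not tested apart.

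**Figure D3:**
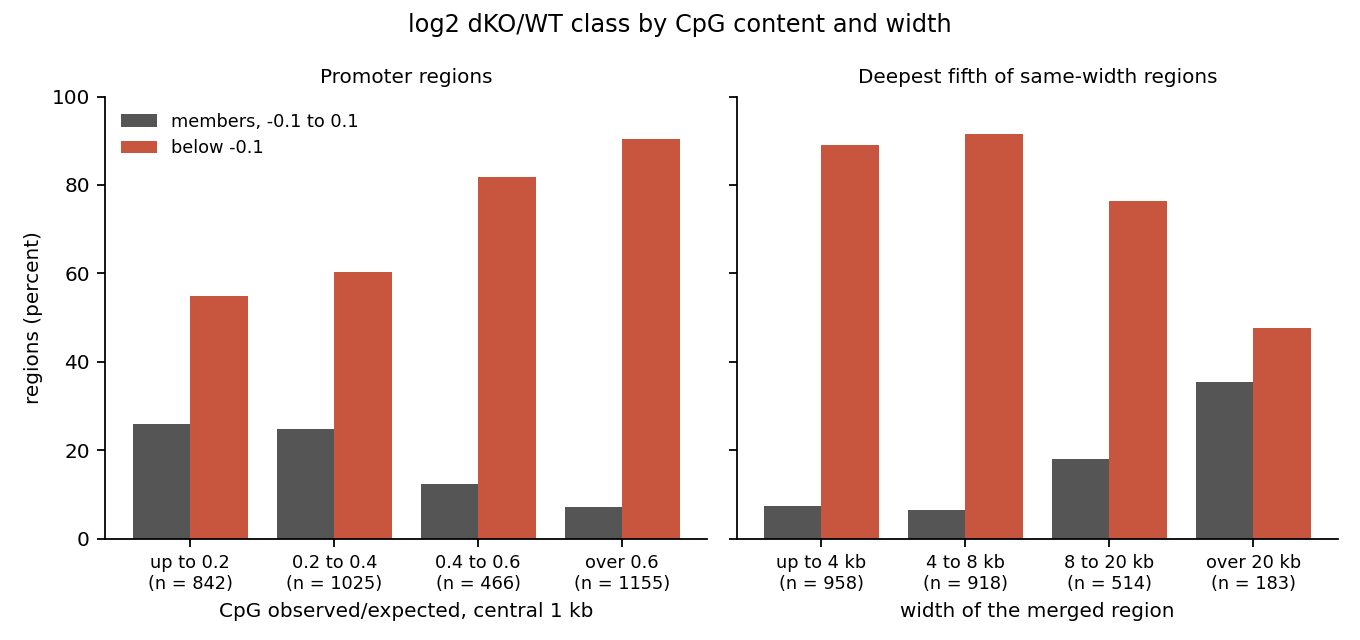
Percent of regions that were members (grey) or lower in dKO cells (red), by the CpG observed/expected ratio in the central 1 kb of same-width promoter regions (left) and by width in the deepest group of same-width regions (right); n is the number of regions in a class. The share of members falls from 26.0% to 7.10% with rising CpG content and rises from 7.41% to 35.5% with width. Higher regions are not drawn. On the left their share falls from 19.1% to 2.51%, and in the deepest group they were wide too, 27.7% of them over 20 kb.

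Taken over all places, the Tcf/Lef letters did not mark out the members. ATCAAAG or its reverse complement lay in the central 1 kb of 14.9% of members, 14.1% of the lower and 16.0% of the higher regions, and 15.3% of all 44698 regions with islands in both lists. At promoters the shares were 13.6% in members, 10.7% in the lower and 11.6% in the higher regions, and away from promoters 15.2%, 16.8% and 16.5%. The order of the classes thus differed by place. In members, lower, higher and all 44698 regions the ETS letters CCGGAA were present in 11.0%, 19.8%, 9.21% and 12.6%. The GC box letters GGGCGG were present in 16.1%, 30.6%, 13.3% and 18.2%. Both contain CpG dinucleotides, and their shares moved with CpG content. The AP-1 letters TGACTCA, the motif of Jun and Fos family factors, were found in 17.0%, 14.8%, 18.2% and 17.1%, and the Runx letters AACCGCA in 2.75%, 3.64%, 2.07% and 2.72%. The Runx letters contain a CpG too, and their share was likewise highest in the lower regions. A match of letters is a description of the window and says nothing about binding.

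Their nearest regions with islands in both lists on either side within 50 kb, 6555 in all, had a median log2 ratio of -0.05 (quartiles -0.32 and 0.21) and those around all such regions -0.05. At least 1.5-fold higher were 9.50% of these neighbours and at least 1.5-fold lower 10.8%, against 11.3% and 13.1% around all regions, and 21.7% of them had a ratio within 0.1 of 0 against 18.4%. Around the lower regions the median was -0.15 and around the higher regions 0.06. Of the 6555 neighbours, 664 (10.1%) were members themselves, so that the rule had used their counts. With members skipped as neighbours, the median was -0.09 around members and -0.09 around all regions, -0.19 around the lower and 0.10 around the higher regions. Within 0.1 of 0 were then 13.4% of the neighbours of members and 11.4% of those of all regions. Of the merged regions directly adjacent to a member, 70.6% had islands in both lists, 8.56% in the WT list alone and 20.8% in the dKO list alone, against 65.2%, 10.9% and 24.0% next to all shared regions. Members lay on every autosome and made up from 23.5% of the same-width regions on chromosome 18 to 32.7% on chromosome 15.

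The 10 members with the most counts were broad domains of 43.0 to 91.8 kb, each with at least 1 promoter. The deepest in total spanned Pitpnc1, which encodes a phosphatidylinositol transfer protein (chr11:107243801-107335400, mm9). It held 36392 WT and 24462 dKO counts, or 404.4 and 267.1 per kb, with a log2 ratio of -0.05 (interval -0.08 to -0.03). Bcl11b, a zinc finger factor needed for commitment to the T lineage, followed with the widest domain of all members (chr12:109153401-109245200, 91.8 kb). Its WT island held 35248 counts over 90.8 kb and its dKO island 24796 over 91.8 kb, with a log2 ratio of 0.01 (interval -0.01 to 0.04). The dKO island was thus 1 kb longer and the ratio per kb was -0.0036. Eif2c2, the older symbol of the gene for Argonaute 2, the slicing enzyme of RNA interference, held 27440 and 18089 counts over chr15:72965001-73025800 (log2 ratio -0.08, interval -0.11 to -0.05).

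Ski, a corepressor of SMAD signalling, held 25819 and 16996 counts over chr4:154528601-154602800 with a log2 ratio of -0.08, and its dKO island was longer (74.2 against 70.8 kb), so that the ratio per kb was -0.15. The third widest member, over BC043934 on chromosome 9 (87.0 kb), held 23369 and 15817 counts (-0.04). Rbm38, an RNA-binding protein, held 21250 and 14419 counts (-0.04). These regions lay slightly below 0, with intervals that excluded it.

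Rapgef1, an exchange factor that activates the small GTPase Rap1, held 20634 and 14483 counts (log2 ratio 0.01, interval -0.02 to 0.04). A domain of 53.4 kb on chromosome 4 took in the promoters of Cd52, a GPI-anchored surface glycoprotein of lymphocytes, Sh3bgrl3 and Ubxn11, with 20316 and 14426 counts (0.03). Jakmip1, which encodes a protein that binds Janus kinases and microtubules, held 20468 and 14135 counts (-0.01). Each of these 3 intervals held 0. Cd2, the adhesion receptor whose human counterpart lent its regulatory sequence to the hCD2-Cre transgene, held 19551 WT and 14059 dKO counts over chr3:101067201-101110200 (0.04, interval 0.01 to 0.08). In the mouse Cd2 region the dKO island was the shorter, 41.6 against 42.8 kb, and its ratio per kb was 0.08.

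Among members with identical borders, the most counts lay over St8sia1, the sialyltransferase that makes ganglioside GD3 (chr6:142872201-142916400, 44.2 kb, 17403 WT and 12558 dKO counts, log2 ratio 0.05). Zc3hav1, a zinc finger antiviral protein, had the highest depth of the members named here, with 606.3 WT and 425.4 dKO counts per kb over 25.4 kb (15401 and 10805 counts, 0.01, interval -0.03 to 0.04). The domain at Sart1, a splicing factor of the tri-snRNP, held 14037 and 9301 counts over 33.4 kb on chromosome 19 (-0.07). A further 2 lay within genes, away from their promoters. One was in Hdac4, a class IIa histone deacetylase, 18969 bp from the nearest TSS (12621 and 9310 counts, 0.08), and the other was in an intron of Ankrd44, 40831 bp away (10476 and 7009 counts, -0.06). In these 5 regions the width cannot enter the ratio, and 4 of the 5 intervals excluded 0.

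The intergenic members with the most counts were long as well. The region 18243 bp from the TSS of Mdm1 (chr10:117513401-117560600, 47.2 kb) held 19106 WT and 12815 dKO counts (log2 ratio -0.06). The region 63740 bp from Glrp1 (chr1:90470201-90494200, 24.0 kb) was the deeper, with 590.7 WT and 383.7 dKO counts per kb (14059 and 9209 counts, -0.09). The region 108574 bp from Tbl1xr1 on chromosome 3 (36.8 kb) held 11395 and 7882 counts (-0.01). The nearest TSS is given as a position only and does not name a target gene.

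**Figure D4:**
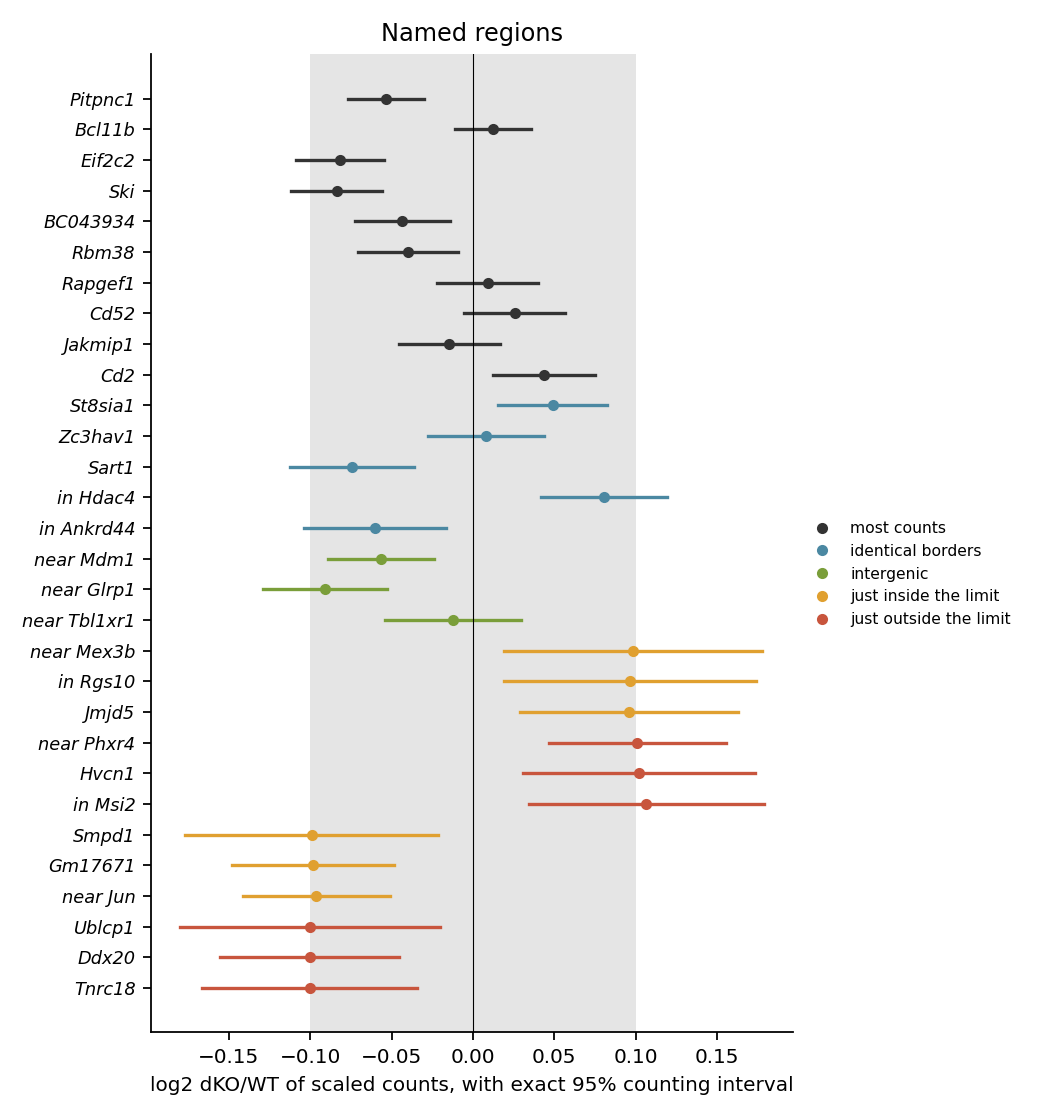
Log2 dKO/WT ratio of scaled counts (horizontal axis) for the named regions (vertical axis), with points for the ratio and lines for the exact 95% counting interval; the grey band is the limit of 0.1. The 10 members with the most counts have intervals narrower than the band (for Bcl11b, -0.01 to 0.04), and those of Eif2c2 and Ski reach past its lower end. The intervals of the regions picked just inside or outside the limit all reach across it.

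Promoters of 7 lists of genes used by all cells were counted in members. Of 79 autosomal ribosomal protein genes, 19 had a promoter in a same-width region, all 19 in lower regions and 0 in members, with a median log2 ratio of -0.39. Proteasome subunit genes had 0 of 8 same-width promoters in members, spliceosome genes 0 of 13, and genes of RNA polymerase II and Mediator 0 of 13, of which 2 were higher. Mitochondrial ribosomal protein genes had 2 of 28, translation initiation factor genes 1 of 18 and genes of respiratory complex I 2 of 10. Over all autosomal protein-coding genes, 709 of the 3928 with a same-width promoter had one in a member (18.1%) and 2880 had one in a lower region. Complex I, with 2 of 10, was near that share, and the other 6 lists were below it. The medians of these 7 lists, from -0.43 to -0.35, were below that of all such genes, -0.27.

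The few members of these lists are described by name. Mrpl4, a protein of the large mitochondrial ribosomal subunit, held 2605 WT and 1802 dKO counts (log2 ratio -0.01), and Mrpl42 held 811 and 538 (-0.07). Ndufs7, a core subunit of complex I, held 2304 and 1709 counts (0.09), and Ndufs5, an accessory subunit, held 1202 and 890 (0.09). In all 4 the dKO island was the wider, and the ratio per kb was -0.31, -0.34, -0.21 and -0.20. These 4 promoters were thus lower per kb of island. The only gene of the initiation factor list was Eif2c2, which entered that list by its old symbol and encodes Argonaute 2. Eif2c3, Eif2ak2, Eif2ak3 and Eif2ak4 were also in that list and are not initiation factors. Its count of 18 and its median therefore take in genes of other kinds.

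Genes of the T cell receptor complex and its proximal signalling had 3 of 5 same-width promoters in members and 2 in lower regions, among 21 genes in the list. Beside Cd2, they were Zap70, the kinase that binds the phosphorylated receptor (8842 WT and 6349 dKO counts, 0.04), and Fyn, a Src-family kinase (5798 and 3858 counts, -0.07). At Zap70 the dKO island was longer, 21.6 against 18.2 kb, and the ratio per kb was -0.21. Of the T cell transcription factor genes 2 of 6 were in members, Bcl11b and 1 annotated promoter of Satb1, a chromatin organizer of T cells (834 and 595 counts, 0.03), while 3 were lower and 1 higher. Naive T cell homing and survival genes had 1 same-width promoter of 19 genes, which was lower. In these 3 T cell lists, 17 of 21, 16 of 21 and 18 of 19 genes had a promoter in a shared region that was not same-width. Such a region could not be a member, but a gene with a same-width promoter as well is counted in both groups. Over all autosomal protein-coding genes with a same-width promoter, 18.1% had one in a member. With 5, 6 and 1 such genes, these 3 lists were too small to be compared with that share.

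Effector CD8 T cell genes had 2 of 6 same-width promoters in members. The region of Tnf spanned 56.8 kb and also held the promoters of the cytokine genes Lta and Ltb and of Aif1, Lst1 and Prrc2a. It held 18320 WT and 12860 dKO counts (log2 ratio 0.01, interval -0.02 to 0.04), and its ratio per kb was -0.12. Batf, an AP-1 family factor of effector cells, held 2759 and 1922 counts (-0.0019). Its ratio per kb was -0.21. The other effector promoters that were same-width were lower for 2 genes and higher for 2. These 6 genes were too few to be compared with the 18.1% over all protein-coding genes.

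Lists of other cell types were too small to be compared with the 18.1% over all protein-coding genes with a same-width promoter. Of B cell markers 0 of 3 same-width promoters were in members, of myeloid markers 0 of 3, and of CD4 and Treg markers 0 of 2. Of NK cell markers 2 of 3 were, Fcgr3, a low-affinity Fc receptor (1489 WT and 974 dKO counts, -0.09), and Itga2, an integrin subunit (724 and 489 counts, -0.05). Both intervals held 0. Whether acetylation at these promoters came from the CD8+ T cells or from other cells in the sort was not tested.

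**Figure D5:**
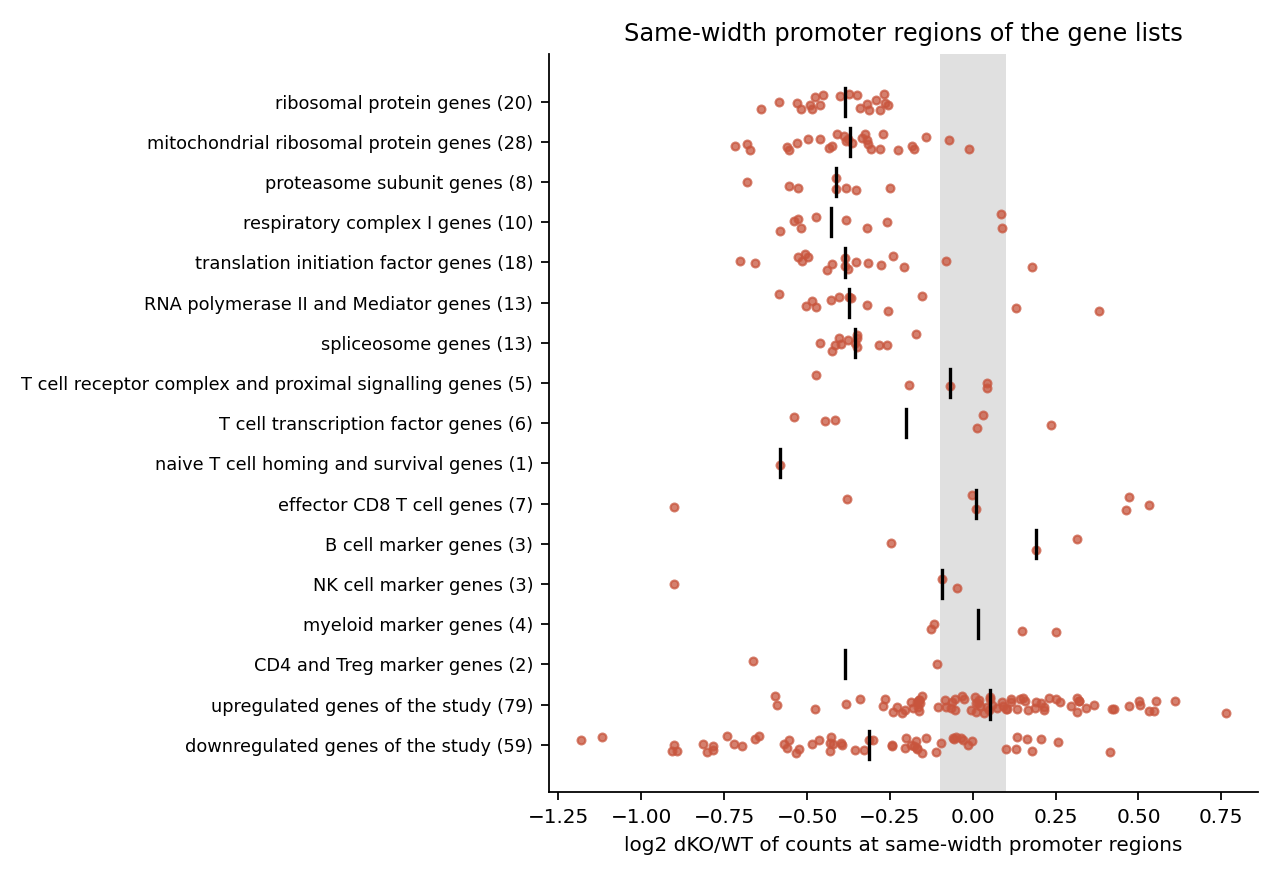
Log2 dKO/WT ratio of counts (horizontal axis) of same-width promoter regions for each gene list (vertical axis, with the number of gene and region pairs in parentheses, which exceeds the number of genes where a gene has promoters in several regions); each point is a pair, black bars are medians and the grey band is the members' limit. Points of the ribosomal protein, proteasome and spliceosome lists lie left of the band, with medians of -0.39, -0.41 and -0.35.

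The study's own lists of changed genes and sites were read by name or position only. Of its upregulated genes, 282 were autosomal and matched, 75 had a same-width promoter and 24 of these had one in a member (32.0%, against 18.1% over all protein-coding genes), with 21 in lower and 34 in higher regions. The 4 with the most counts were Stard10, a lipid transfer protein (14655 WT and 10586 dKO counts, log2 ratio 0.05), Ly6d (8658 and 6257, 0.05), the chemokine receptor Cxcr6 (8413 and 6082, 0.05) and the chondroitin synthase Chsy1 (6017 and 4243, 0.02). All 4 lay above 0, within the limit that the rule set, and the interval of Chsy1 held 0 (-0.04 to 0.07). The signs of the 24 were mixed. Serinc3, next by counts, lay below 0 (-0.08), as did Tlr1 (-0.03) and others. Of its downregulated genes, 236 matched, 53 had a same-width promoter and 8 of these were in members (15.1%, against the same 18.1%), with 42 in lower and 8 in higher regions. These included Ankrd13b (6809 and 4569 counts, -0.06), Cyp2s1, a cytochrome P450 (3460 and 2363, -0.03), the semaphorin gene Sema4g (1352 dKO counts, -0.06) and Mccc2, a subunit of methylcrotonyl-CoA carboxylase (1415 and 924, -0.10). Cyp2s1 had a further same-width promoter region that was lower (-0.21), and Mccc2 one that was higher (0.42, with 287 WT and 267 dKO counts).

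The study's lists of accessible sites, super enhancers and chromatin hubs were used as far as they were linked to genes, which is a subset of those it defined. Of the listed accessible sites, 3 of 131 in C1, 5 of 79 in C2, 1 of 11 in C3 and 1 of 97 in C4 lay in a member. The merged regions of C1 sites were members in 2.91% of 103 cases, of C2 sites in 7.25% of 69, of C3 sites in 9.09% of 11 and of C4 sites in 1.27% of 79. Merged regions within the 48 listed autosomal WT-prepotent super enhancers numbered 792 with islands in both lists, of which 61 were members (7.70%), and those within the 88 dKO-prepotent ones 1542, of which 106 were members (6.87%). Regions in the 47 listed WT-specific chromatin hubs gave 30 of 392 (7.65%) and in the 35 dKO-specific hubs 20 of 227 (8.81%). Over all 44698 such regions 7.88% were members. The shares of super enhancers and hubs were near this background, and those of C1 and C4 sites rest on 3 members and 1 member. The super enhancer lists were chosen on these libraries and are not independent evidence.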

How the data were processed

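The authors aligned reads to mm9 (Bowtie2 2.2.5), kept uniquely mapped reads, joined the replicates within each genotype, and ran SICER 1.1 on each pool (window 200 bp, gap 400 bp, FDR 0.01). The deposited values are whole-number read counts per island, unscaled for depth or width. The inputs have no value column and were not used here. The handling of duplicate reads is not given in the sources used here. Island totals are not library totals, so scaling by them removes differences in enrichment together with depth.

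Starts, counted from 0 in the files, are printed counted from 1. Genes came from GENCODE vM1 on NCBIM37 (mm9), and a promoter was 1 kb either side of a protein-coding TSS. Analyses used Python 3.11.15, pandas 2.3.3 and scipy 1.17.1, and the steps were tested on simulated data. Named regions were the 10 members with the most counts, the 5 with identical borders, the 3 widest, the 3 intergenic ones, the 3 nearest the limit on each side (at least 5000 counts), and up to 4 genes per list with a promoter in a member, by counts. Sequences were those of the 4 list genes and 2 intergenic members with the most counts, leaving out chromosome 18 and windows with an annotated exon. Members and lists were chosen with earlier results of these data known. Alternatives changed the scaling, overlap, limit, measure, count minimum, joining, windows and gene assignment.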

Additional observations from a re-analysis of the deposited data

How the results depend on the processing

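No paired analysis was possible because the replicates of each genotype were pooled into 1 list, and for the same reason no replicate could be left out. The number of members was 389 without scaling, 1781 when centred on CpG-rich promoters (chosen after seeing the data), 994 with identical borders, 1811 and 6589 at limits of 0.05 and 0.2, 1694 with at least 1000 counts and 2225 after joining islands within 1 kb. The promoter share was 20.9% with totals of shared regions, 20.4% and 19.7% when centred on the median of autosomal and of same-width regions, 10.3% without scaling, 58.0% when centred on CpG-rich promoters, 18.8% at 70% overlap, 10.4% with identical borders, 16.0% per covered kb, 29.6% with at least 1000 counts, 28.5% after joining, 19.8% with a TSS within 2 kb and 23.9% with a TSS of any gene type. It was below that of the lower regions under the settings compared for both, except for centring on CpG-rich promoters (58.0% against 57.5%). That setting places the limit on promoter regions by choice.

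The median width was 3200 bp without scaling, 4400 bp when centred on CpG-rich promoters, 2600 bp with identical borders, 7800 bp with at least 1000 counts and 7600 bp after joining. The median WT counts per kb were 153.8 with shared totals, 153.6 and 151.8 with the medians of autosomal and same-width regions, 130.9 without scaling, 335.0 when centred on CpG-rich promoters, 150.0 at 90% overlap, 145.5 per covered kb, 173.9 with at least 1000 counts and 153.0 after joining. The median log2 ratio of neighbours was 0.0053, 0.00049 and -0.0096 under those first 3 scalings, -0.36 without scaling, 0.24 when centred on CpG-rich promoters, -0.076 with identical borders, -0.0073 per covered kb, -0.033 with at least 1000 counts and -0.089 without neighbours that were members. The cause of these shifts was not tested. The CpG ratio was 0.195 over the whole region. The Tcf/Lef share was 7.30% in the central 500 bp, 28.9% in the central 2 kb, 53.2% in the whole region, 33.8% with TTCAAAG added and 1.65% with at least 2 matches. Genes of the 15 gene lists with a promoter in a member numbered 14, and 39 had a gene body overlapping one.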
